A study of Mus musculus with 5 samples.

Results

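Week 8 (W8) was compared with week 5 (W5) of the azoxymethane and dextran sulfate sodium mouse model of colitis-associated colon cancer, across all genes that passed a filter on level. Azoxymethane (AOM) is a mutagen given by injection, and dextran sulfate sodium (DSS) in the drinking water injures the colonic epithelium. The W8 and W5 groups were male C57BL/6 wild-type mice of 8 to 12 weeks that had received AOM at 8.5 mg per kg into the peritoneum on days 1 and 8, and DSS. The schedule of the study ran from AOM to DSS at 1.5% for 7 days, then 14 days of plain water and further DSS cycles. The groups differ in the week of sampling, and the labels do not say how many DSS cycles each had completed. The series also has libraries of week 11 with the same 2 agents (W11), of week 2 labelled as AOM alone (W2) and of untreated control mice (W0). From each group 3 mice were selected, with no statement on pooling, and each week has 1 library, so the comparison uses 2 of 5 libraries. No difference below therefore has a replicate check, and none has a p-value.

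The colonic epithelium is renewed from stem cells at the base of the crypts, which depend on Wnt signals. In that pathway, beta-catenin enters the nucleus and acts with TCF factors, and among the genes it switches on are inhibitors that feed back on the pathway. Paneth cells, which secrete alpha-defensins and lysozyme, normally belong to the small intestine, and in mice Wnt signals are also known to drive genes of that cell type. Towards the gut lumen, colonic cells mature into absorptive colonocytes, mucus-secreting goblet cells and hormone-secreting enteroendocrine cells.

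The deposited read counts were scaled to counts per 1000000 counted reads (CPM). Each fold is log2(CPM + 1) of W8 minus that of W5, a scale on which low genes appear to change less than they do. Of 52382 genes in the table, 14720 had a mean of at least 1 CPM over the 5 libraries and were compared. Genes low in W0, W2 and W5 could pass this filter through W8 and W11 alone, so counts of higher genes in the lists below are descriptions. "Rose", "fell", "higher" and "lower" in a count mean a fold of at least 2. The W8 library had 13389184 counted reads and the W5 library had 20379429, and the other 3 had between 13778653 and 14945610. The labels name colon as the tissue and intestinal epithelial cells as the cell type. Both libraries held genes of other cells: Acta2, an actin of smooth muscle, was at 685 CPM in W8 and 1737 CPM in W5, and Cd79a of the B cell receptor was at 21.4 CPM in W8 and 52.8 CPM in W5. Neither library was thus of epithelial cells alone, and in such bulk RNA fewer cells of a type and less RNA per cell cannot be told apart. The labels give weeks and treatments but no histology, so the terms colitis and dysplasia were not checked here.

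Between the 2 libraries, 703 genes (4.78% of those compared) were higher in W8 and 530 (3.6%) were lower, 8.38% in all. Over all genes compared the median fold was -0.01 on the log2 scale. At 4-fold or more, 72 genes were higher in W8 and 21 were lower. Every called gene had a 95% counting interval of its ratio that excluded 1, which covers counting error only. Among the largest rises were those of Paneth cell defensins, both Reg3 lectins and Wnt10a, and among the largest falls were those of fat genes and of several drug-metabolising enzymes.

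**Figure D1:**
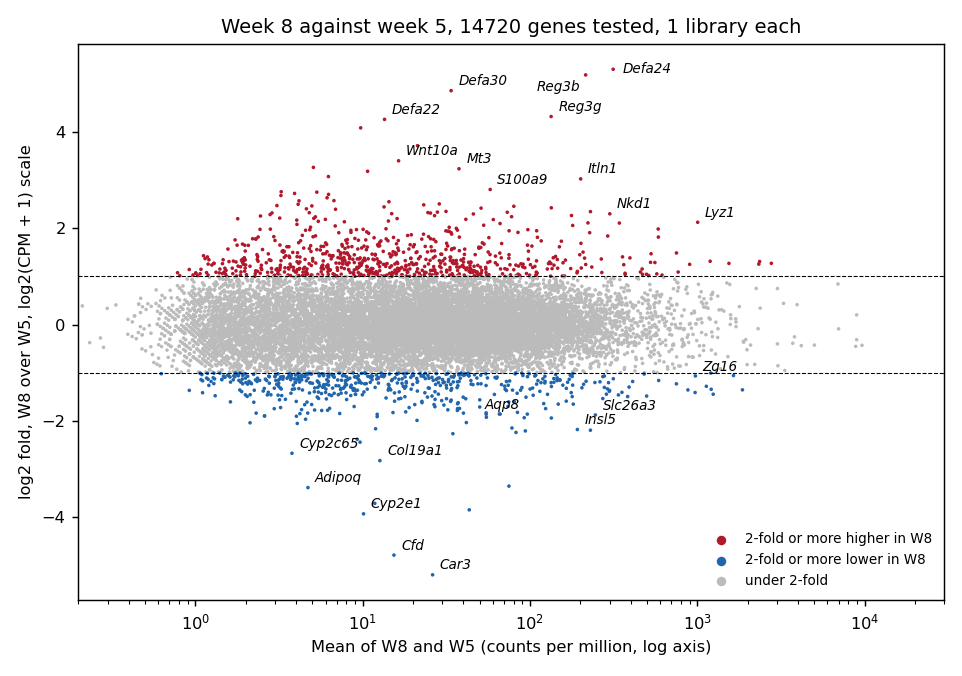
Each point is a gene, placed by its mean level in W8 and W5 (horizontal, CPM, log axis) and its log2 fold of W8 over W5 (vertical, log2(CPM + 1) scale), with dashed lines at 2-fold, red for the 703 higher genes and blue for the 530 lower ones. Defa24 (5.30), Reg3b (5.18) and Defa30 (4.85) stand at the top, and Car3 (-5.19), Cfd (-4.78) and Cyp2e1 (-3.93) at the bottom.

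To show the regions before the start sites of some of the higher genes, 4 windows of 250 bases upstream of the RefSeq start (GRCm38.p6) are printed 5′ to 3′ on the strand of the gene. They are those of 2 defensins, a Reg3 lectin and a Wnt target, picked after their values were seen because they contain the 7-base core to which TCF factors can bind. Capitals mark that core, written CTTTGAT or, on the other strand, ATCAAAG. The windows lie at chr8:21134400-21134649 (Defa30, plus strand), chr8:21162027-21162276 (Defa22, plus strand), chr6:78468875-78469124 (Reg3g, minus strand) and chr2:70474673-70474922 (Sp5, plus strand).
Defa30: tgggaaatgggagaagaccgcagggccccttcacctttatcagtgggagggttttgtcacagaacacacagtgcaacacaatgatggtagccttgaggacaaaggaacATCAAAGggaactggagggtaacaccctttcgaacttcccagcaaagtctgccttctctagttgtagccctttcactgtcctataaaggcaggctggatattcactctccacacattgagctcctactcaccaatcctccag
Defa22: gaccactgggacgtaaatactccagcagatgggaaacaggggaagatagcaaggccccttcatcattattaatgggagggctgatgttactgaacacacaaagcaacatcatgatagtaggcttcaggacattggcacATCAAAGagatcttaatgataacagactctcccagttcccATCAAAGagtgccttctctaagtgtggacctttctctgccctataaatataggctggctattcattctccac
Reg3g: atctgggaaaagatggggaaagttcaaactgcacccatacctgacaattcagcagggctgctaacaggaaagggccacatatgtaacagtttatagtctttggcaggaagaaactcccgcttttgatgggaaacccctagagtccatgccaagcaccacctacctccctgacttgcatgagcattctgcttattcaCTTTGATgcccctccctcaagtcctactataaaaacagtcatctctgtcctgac
Sp5: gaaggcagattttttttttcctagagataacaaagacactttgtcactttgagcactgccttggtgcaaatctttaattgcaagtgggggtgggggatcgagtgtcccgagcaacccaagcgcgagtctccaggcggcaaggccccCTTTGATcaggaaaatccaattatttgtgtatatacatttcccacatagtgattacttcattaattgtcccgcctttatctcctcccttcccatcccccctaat

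The core begins 142 bases before the start in Defa30, 54 in Reg3g and 104 in Sp5, and Defa22 has a pair of cores. The window of Defa21 is identical to that of Defa22 at 250 of 250 bases. Searched on both strands, the core was present in at least 1 window of 27 of the 484 genes higher in W8 that have a window (5.58%), of 12 of 320 such lower genes (3.75%) and of 300 of 10725 such genes of all those compared (2.80%), and in 1053 of all 32851 windows (3.21%). Among the gene lists described below and counting genes with a window, it was found for 4 of 9 Paneth-type genes (Defa21, Defa22, Defa30 and, in 1 of its windows, Mmp7), 1 of 11 inducible antimicrobial genes (Reg3g), 1 of 7 Wnt feedback inhibitors (Tnfrsf19) and 1 of 11 other Wnt targets (Sp5). The matching window of Mmp7 lies after the start site of its other window, which has no core. A match describes the letters only and is no measure of binding, and near-identical defensin windows are not separate cases.

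Paneth-type genes were among the largest rises. Defa24, an alpha-defensin, which is an antimicrobial peptide of Paneth cell granules, was at 0 CPM in W0, 0.0683 in W2, 14.6 in W5, 614 in W8 and 142 in W11. The W8 value was the highest of the 5 libraries, and its ratio to W5 was 42.0 (counting interval 37.4 to 47.3; log2 fold 5.30). Defa30 was at 66.2 CPM in W8 and 1.32 CPM in W5 (log2 4.85), and Defa22 was at 26.6 CPM in W8 and 0.442 CPM in W5 (log2 4.26). Further defensins among the largest rises were Defa21 (log2 4.08), Defa17 (3.71) and Defa3 (2.72). Defa32 had 3 counts in W5, and its W8 level was 68.0 times as high, with a counting interval of 22.8 to 334 (log2 3.26). Of 28 genes in the table with a Defa symbol, a group chosen after its values were seen, 10 passed the filter on level and all 10 were higher in W8, with summed levels of 817 CPM in W8 and 20.5 CPM in W5. Several passed the filter mainly through W8 and W11 and so had to differ, which makes that count a description.

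Reads of defensins cannot always be told apart. Shared 75-base words were searched only among genes named Defa with a number, Reg3b, Reg3g, Lyz1, Lyz2, Mcpt1 and Mcpt2. Of the words in the transcript of Defa24, 6.67% occur in another of these genes. The share was 20.7% for Defa30, 56.2% for Defa22, 91.3% for Defa17 and 100% for Defa32. For Lyz1 the share was 6.22%, and for Reg3b and Reg3g it was 0. Words shared with any other gene were not searched, so each share is a lower bound. How the counting step treated reads with several matches is not given in the sources used here.

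Outside the defensins, Itln1, an intelectin that binds microbial sugars, was at 359 CPM in W8 and 43.2 CPM in W5 (log2 3.02). It was at 4.86 CPM in W0, 2.12 in W2 and 183 in W11. Named after their values were seen, Lyz1, the lysozyme of Paneth cells, was at 1636 CPM in W8 and 375 CPM in W5 (log2 2.12), and Mmp7, which in mouse small intestine cuts pro-defensins into their active form, was at 556 CPM in W8 and 128 CPM in W5 (log2 2.11). Of 12 measured Paneth-type genes out of 18 listed, 10 were higher and 1 was lower, with a median of 2.87. Some defensins among them, namely Defa21, Defa22 and Defa3, passed the filter on level mainly through W8 and W11, so that this count and median are a description too. The lower gene was Mptx1, a mucosal pentraxin, at 660 CPM in W8 and 1605 CPM in W5 (log2 -1.28). Levels of Defa24, Lyz1 and Itln1 in W11 were all below those in W8 and above those in W5. Of 6 measured small intestinal enterocyte genes out of 13, the bile acid transporter Slc10a2 was higher (log2 1.43) and Apob (-1.54) and Slc5a1 (-1.12) were lower, with summed levels of 123 CPM in W8 and 250.3 CPM in W5. Of 3 measured gastric genes out of 13, the water channel Aqp5 was at 5.30 CPM in W8 and 0.294 CPM in W5 (log2 2.28) and the gastrokine Gkn3 at 6.80 CPM in W8 and 2.50 CPM in W5 (1.15).

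Inducible antimicrobial genes were also higher in most measured cases. Reg3b, an antibacterial C-type lectin, was at 2.32 CPM in W0, 0 in W2, 10.6 in W5, 420 in W8 and 89.8 in W11, and W8 was 39.6 times W5 (counting interval 34.6 to 45.6; log2 5.18). Its paralog Reg3g was at 256 CPM in W8 and 11.9 CPM in W5 (ratio 21.5, counting interval 18.9 to 24.6; log2 4.32). Wfdc18, a WAP-domain protein, was at 385 CPM in W8 and 75 CPM in W5 (log2 2.34). Lcn2, which binds bacterial siderophores, was at 361 CPM in W8 and 82.9 CPM in W5 (log2 2.11). Of 12 measured members out of 18, 8 were higher and 0 lower, with a median of 1.26. The other 4 higher members, named after their values were seen, were the acute phase gene Saa3 (log2 1.50), the protease inhibitor Slpi (1.33), the goblet cell resistin Retnlb (1.20) and the ribonuclease Ang4 (1.17). Summed over the list, levels were 13767 CPM in W8 and 15471 CPM in W5. Lypd8 (log2 -0.31) and Pigr (-0.39), the members with the highest CPM, were under 2-fold.

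**Figure D2:**
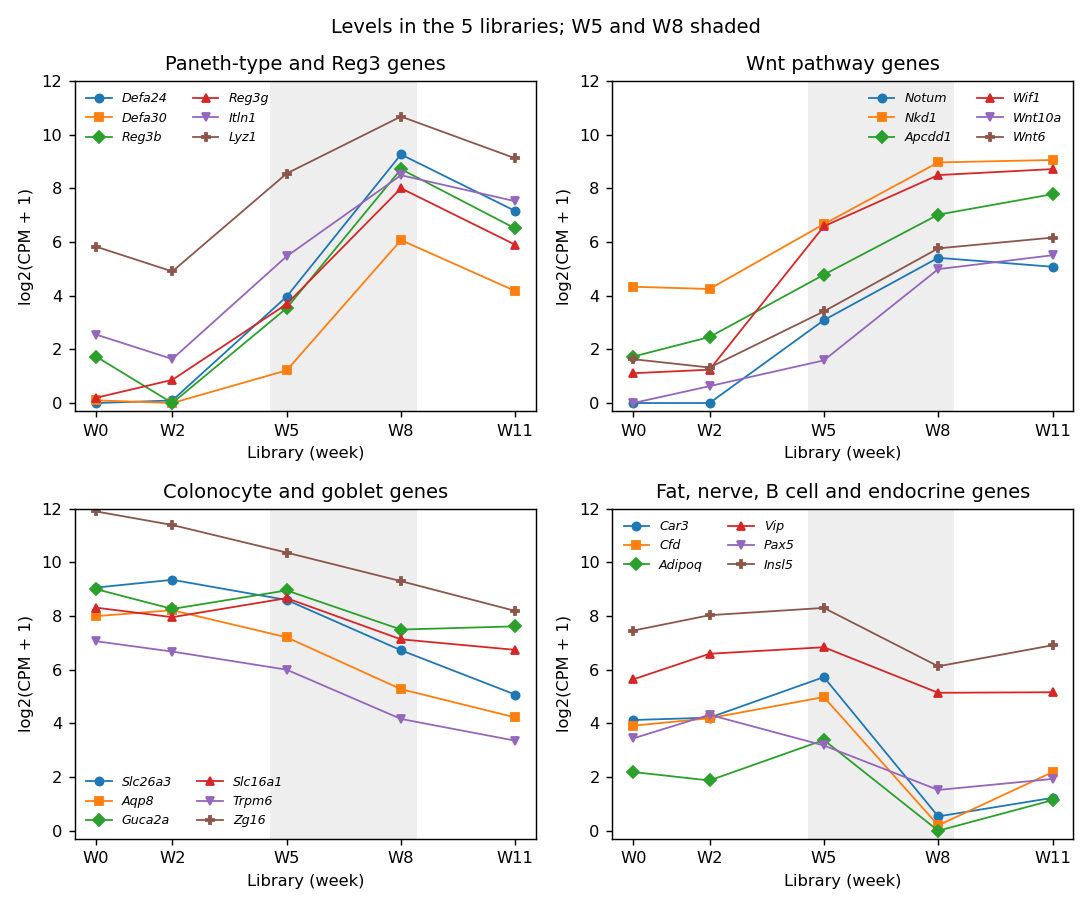
Levels of 24 genes in the 5 libraries (horizontal, week; vertical, log2(CPM + 1)), with W5 and W8 shaded and 1 point per library. Of the genes shown, Paneth-type and Reg3 genes peak in W8, and Wnt pathway genes keep or exceed their W8 level in W11 except Notum. The colonocyte genes shown and Zg16 are lower in W8 than in W5, and Car3, Cfd and Adipoq are near 0 in W8. Summed over the whole list, Wnt feedback inhibitors were at 1704 CPM in W8 and 1630 CPM in W11. Other Wnt targets were at 1437 CPM in W8 and 1073 CPM in W11, and Wnt ligands and receptors at 647 CPM in W8 and 370 CPM in W11.

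Feedback inhibitors of the Wnt pathway lay above their W5 level in W8 throughout the list. Notum, a secreted enzyme that inactivates Wnt proteins, was at 0 CPM in W0 and W2, 7.51 in W5, 41.6 in W8 and 32.8 in W11. Its log2 fold was 2.32, although its exons overlap those of the expressed gene Notumos and the strand setting of the counting is not given in the sources used here. Nkd1, which binds the signalling protein Dishevelled, was at 499 CPM in W8 and 101 CPM in W5 (ratio 4.96, counting interval 4.72 to 5.21; log2 2.30). Apcdd1, a membrane inhibitor, was at 129 CPM in W8 and 26.5 CPM in W5 (log2 2.24), and Wif1, which traps Wnt proteins outside the cell, was at 360 CPM in W8 and 95.1 CPM in W5 (log2 1.91). Of 12 measured members out of 13, 8 were higher, 0 were lower and all 12 lay above their W5 level, with a median of 1.27. Dkk2 (log2 1.72), Tnfrsf19 (1.28), Axin2 (1.25) and Rnf43 (1.23) were the other higher members and are named after their values were seen.

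Among other Wnt targets, Sp5, a zinc finger transcription factor, was at 43.0 CPM in W8 and 7.85 CPM in W5 (log2 2.31). Prox1, a homeobox factor, was at 156 CPM in W8 and 49.7 CPM in W5 (log2 1.63), and its exons overlap those of Prox1os. Lef1, itself a TCF family factor, was at 10.1 CPM in W8 and 3.14 CPM in W5 (log2 1.42), and Sox4 was at 146 CPM in W8 and 71.3 CPM in W5 (log2 1.03). Of 14 members, 4 were higher and 0 lower (median 0.67). Myc was at 38.7 CPM in W8 and 31.8 CPM in W5 (log2 0.28), and Cd44 at 400.2 CPM in W8 and 266 CPM in W5 (0.58), both under 2-fold.

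Among ligands and receptors, 4 of 23 measured members were higher and 0 lower, and the list median was -0.18. Wnt10a, a secreted Wnt ligand, was at 0 CPM in W0, 0.546 in W2, 2.01 in W5, 30.8 in W8 and 44.5 in W11, with a ratio of W8 to W5 of 15.3 (counting interval 11.1 to 21.6; log2 3.40). The ligand Wnt6 was at 53.3 CPM in W8 and 9.67 CPM in W5 (log2 2.35), and the ligand Wnt3 was at 4.11 CPM in W8 and 0.491 CPM in W5 (log2 1.78). Fzd10, a Frizzled receptor, was at 9.26 CPM in W8 and 1.18 CPM in W5 (log2 2.24). These were the only called members, and Rspo3, a ligand of Lgr receptors, was at 7.39 CPM in W8 and 13.5 CPM in W5 (log2 -0.79). Wnt10a, Wnt3 and Fzd10 passed the filter on level mainly through W8 and W11, so that the count of higher members is a description.

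Stem cell genes were divided. Lgr5, the crypt stem cell receptor, was at 65.1 CPM in W8 and 27.6 CPM in W5 (log2 1.21), Smoc2, a matrix protein of those cells, was at 263 CPM in W8 and 122 CPM in W5 (1.10), and Msi1, an RNA-binding protein, was at 4.93 CPM in W8 and 1.52 CPM in W5 (1.23). The other 11 of 14 measured members were under 2-fold, and the median was 0.26. With the mean of W8 and W11 as the later level, none of the 14 was past 2-fold. Of 24 proliferation genes 0 were higher and 0 lower (median 0.26), with the division marker Mki67 at 190 CPM in W8 and 170 CPM in W5, and of 16 ribosome biogenesis genes 0 were called (median 0.34).

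Genes that mark fetal or regenerating epithelium in mice were higher in 5 of 12 measured cases out of 15 listed, with 0 lower and a median of 0.69. Spp1, osteopontin, was at 81.4 CPM in W8 and 24.9 CPM in W5 (log2 1.67), and Msln, mesothelin, was at 10.8 CPM in W8 and 3.48 CPM in W5 (1.39). Plaur, the urokinase receptor, was at 45.2 CPM in W8 and 16.8 CPM in W5 (log2 1.37), and Clu, clusterin, was at 773 CPM in W8 and 372 CPM in W5 (1.05). The keratin Krt7 (log2 1.03) was the other higher member. Ly6a, a gene often used for this state, was at 811 CPM in W8 and 860 CPM in W5 (log2 -0.09; named after its values were seen). Anxa1 and Anxa8 are listed at 0 in all 5 libraries.

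Of 6 measured oncofetal or imprinted genes 2 were higher: Cdkn1c, a cell cycle inhibitor, at 23.9 CPM in W8 and 4.61 CPM in W5 (log2 2.15), and the non-coding RNA H19 at 178 CPM in W8 and 87.9 CPM in W5 (1.01). H19 was at 0 CPM in W0, 0.0683 in W2 and 22.1 in W11. Transcription factors of gut position were under 2-fold in 16 of 18 cases, among them Cdx2 (log2 -0.86). The others were Gata5, at 27.0 CPM in W8 and 5.10 CPM in W5 (log2 2.2), and Onecut2, at 7.17 CPM in W8 and 0.932 CPM in W5 (log2 2.08). In the BMP list 2 of 15 members were higher, namely Id3 (log2 1.30) and the ligand Bmp7 (1.30), and 2 were lower, among them the antagonist Chrdl1 (-1.26). Jag2 (log2 1.33) was the only called member of 9 Notch genes, and of 12 genes of EGF ligands and receptors 0 were called.

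Keratins of layered epithelium were among the genes that rose. Of 10 measured squamous genes out of 17, 5 were higher and 1, Krt10 (log2 -1.01), was lower, with a median of 0.92. Summed levels were 282 CPM in W8 and 158 CPM in W5. That sum was already 179 CPM in W0, where Krt14 was at 2.83 CPM and Krt17 at 5.37 CPM. Members other than the called keratins thus held most of it in W0. Krt14, a basal keratin, was at 41.5 CPM in W8 and 15.9 CPM in W5 (log2 1.33), and Krt6a was at 5.08 CPM in W8 and 1.42 CPM in W5 (1.33). Krt4 (log2 1.26), Krt13 (1.19) and Krt17 (1.13) also rose. Krt4, at 0.294 CPM in W5, and Krt6a passed the filter on level mainly through W8 and W11, so that the count of higher squamous genes is a description. Cldn4, a claudin of tight junctions, was at 13.2 CPM in W0, 10.8 in W2, 69.1 in W5, 291 in W8 and 258 in W11, and its log2 fold of W8 over W5 was 2.06. It was the only called gene of 15 tight junction members. General epithelial genes were under 2-fold in all 9 measured cases (median -0.25), with Epcam at 2004 CPM in W8 and 1124 CPM in W5 (log2 0.83) and Lgals4 at -0.44.

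Absorptive colonocyte genes were among those that fell. Slc26a3, the chloride and bicarbonate exchanger of colonocytes, was at 533 CPM in W0, 652 in W2, 387 in W5, 105 in W8 and 32.7 in W11, and W8 was 3.69-fold lower than W5 (counting interval 3.49 to 3.91; log2 -1.87). The water channel Aqp8 was at 37.8 CPM in W8 and 147 CPM in W5 (log2 -1.93), and the magnesium channel Trpm6 was at 17 CPM in W8 and 63.1 CPM in W5 (log2 -1.84). Slc16a1, which carries short-chain fatty acids and lactate, was at 139 CPM in W8 and 406 CPM in W5 (log2 -1.53). Of 23 measured members 9 were lower and 2 higher, with a median of -0.63 and summed levels of 2712 CPM in W8 and 4816 CPM in W5. Among the higher members, and named after its values were seen, was the peptide hormone gene Guca2b (log2 1.14), while Guca2a, its paralog, fell by 1.46 on the log2 scale.

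Among the listed goblet cell genes, Zg16, a lectin-like protein of colonic mucus that the series title names, was at 630 CPM in W8 and 1319 CPM in W5, 2.09-fold lower (counting interval 2.04 to 2.15; log2 -1.06). Of 15 measured goblet genes it was the only called one, and the list median was -0.22, with Muc2, the main gel-forming mucin, at 117 CPM in W8 and 162 CPM in W5 (log2 -0.47) and Clca1 at 1736 CPM in W8 and 1672 CPM in W5 (0.05). Of 9 measured transcription factors of secretory cells 0 were called.

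Enteroendocrine genes were lower in 5 of 14 measured cases and higher in 0, with a median of -0.73. Insl5, an insulin-like peptide of colonic L cells, was at 175 CPM in W0, 261 in W2, 315 in W5, 68.9 in W8 and 120 in W11, and W8 was 4.57-fold lower than W5 (counting interval 4.27 to 4.90; log2 -2.18). Tph1, the enzyme that starts serotonin synthesis in enterochromaffin cells, was at 7.54 CPM in W8 and 20.9 CPM in W5 (log2 -1.36). The granule proteins Scg3 (log2 -1.11) and Scg2 (-1.06) also fell, and Gcg (-1.04; named after its values were seen) was the other lower member. Among 8 tuft cell genes only Avil was called, at 39.2 CPM in W8 and 10.4 CPM in W5 (log2 1.82), and its exons overlap those of Tsfm. Defining tuft genes such as Dclk1 (log2 -0.47) and Trpm5 (-0.18) were under 2-fold.

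Several enzymes that modify drugs and steroids fell. Cyp2c65, a cytochrome P450, was at 0.299 CPM in W8 (4 counts) and 7.26 CPM in W5, a log2 fold of -2.67. Cyp3a13 was at 22.3 CPM in W8 and 87.4 CPM in W5 (log2 -1.92), Cyp2c68 at 23.5 CPM in W8 and 86.0 CPM in W5 (-1.83), and Cyp2c55 at 14.1 CPM in W8 and 47.1 CPM in W5 (-1.67). Of 19 measured members of the list 5 were lower and 1 higher (median -0.80), the other lower one being the carboxylesterase Ces2a (log2 -1.23) and the higher one the bile acid and drug exporter Abcc2 (log2 1.41; named after its values were seen). Further large falls were those of the sulfotransferase Sult1d1, at 28.2 CPM in W8 and 137 CPM in W5 (log2 -2.24), of Akr1c19, an aldo-keto reductase, at 81.9 CPM in W8 and 378 CPM in W5 (log2 -2.19), and of Hnmt, which inactivates histamine, at 1.27 CPM in W8 and 7.85 CPM in W5 (log2 -1.96). In the prostaglandin list 4 of 13 members were lower and 0 higher (median -0.38): the prostacyclin synthase Ptgis (log2 -1.32), the uptake transporter Slco2a1 (-1.11), the degrading enzyme Hpgd (-1.06) and the phospholipase Pla2g4a (-1.02). Ptgs2, the inducible cyclooxygenase, was at 18.6 CPM in W8 and 25.6 CPM in W5 (log2 -0.44).

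Most further lists of metabolism and stress had few called genes. Slc16a3, a lactate exporter, was at 99.6 CPM in W8 and 21.2 CPM in W5 (log2 2.18), and Eno1, a glycolytic enolase, was at 1047 CPM in W8 and 2676 CPM in W5 (-1.35), as the only called genes of 16 in glycolysis. Of 18 genes of fatty acid oxidation and ketone synthesis Ehhadh alone was called (log2 -1.06), and of 15 genes of cholesterol synthesis 0 were. Gpx1, which removes peroxides, was at 519 CPM in W8 and 195 CPM in W5 (log2 1.41), and Duoxa2, the partner of an epithelial oxidase, was at 44.1 CPM in W8 and 17.9 CPM in W5 (1.26), with exons that overlap those of Duoxa1. The iron-storage subunit Fth1 was at 2186 CPM in W8 and 906 CPM in W5 (log2 1.27), and haptoglobin, Hp, was at 180.1 CPM in W8 and 53.3 CPM in W5 (1.74). In the list of epithelial oxidases 3 of 12 measured genes (25%) were higher and 0 lower. In the list of iron and metal genes 3 of 11 (27.3%) were higher and 1 (9.09%) was lower. Bax, a cell death gene and p53 target, was the only called one of 14 p53 targets, at 29.7 CPM in W8 and 8.73 CPM in W5 (log2 1.66). The immediate early genes Fosb (log2 -1.54) and Egr1 (-1.42) were the called ones of 15 in their list, and both fell.

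**Figure D3:**
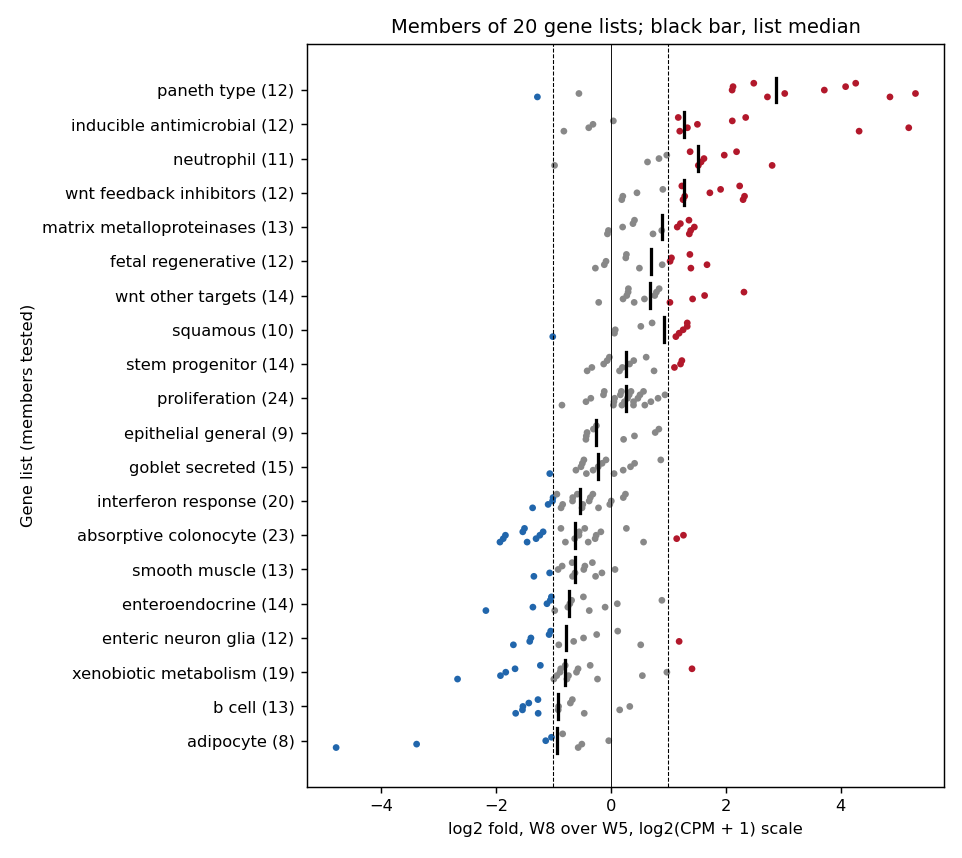
Log2 folds of W8 over W5 (horizontal, log2(CPM + 1) scale) of the measured members of 20 gene lists (vertical, with the number measured), where each point is a gene, red is 2-fold or more higher, blue is 2-fold or more lower and the black bar is the list median. Medians run from 2.87 for Paneth-type genes, several of which passed the filter on level mainly through W8 and W11, to -0.94 for adipocyte genes, beside -0.01 for all 14720 genes.

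Neutrophil genes were higher in most measured cases. S100a9, a subunit of calprotectin, was at 0.435 CPM in W0, 0.342 in W2, 13.7 in W5, 102 in W8 and 111 in W11, and W8 was 7.42 times W5 (counting interval 6.52 to 8.47; log2 2.80). The other subunit, S100a8, was at 68.5 CPM in W8 and 14.3 CPM in W5 (log2 2.19). Retnlg, a neutrophil resistin, was at 15.2 CPM in W8 and 3.14 CPM in W5 (log2 1.97), and the lectin receptor Clec4d was at 13.5 CPM in W8 and 3.73 CPM in W5 (1.62). Of 11 measured members out of 18, 7 were higher and 0 lower (median 1.52), while Ly6g, a defining marker, was at 77.9 CPM in W8 and 155 CPM in W5 (log2 -0.98; named after its values were seen). Summed levels of the list were 121 CPM in W0, 223 CPM in W5 and 345 CPM in W8, and Ly6g held most of the W5 sum. With the mean of W8 and W11 as the later level, 5 of the 11 were higher (median 0.95). With the mean of W2 and W5 as the earlier level, 9 were higher (median 1.76). A pseudocount of 5 gave a median of 0.75. Of 7 chemoattractant genes for neutrophils 2 were higher, Cxcl3 (log2 1.55) and Cxcl5, at 149 CPM in W8 and 69.4 CPM in W5 (1.09).

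Of 12 measured inflammatory cytokine genes 3 were higher and 0 lower (median 0.75). Il23a, a subunit of interleukin 23, was at 7.24 CPM in W8 and 0.834 CPM in W5 (log2 2.17), Tnf was at 7.77 CPM in W8 and 2.06 CPM in W5 (1.52), and Il36g was at 5.75 CPM in W8 and 1.96 CPM in W5 (1.19). Nos2, the inducible nitric oxide synthase, stood just under 2-fold, at 108 CPM in W8 and 53.8 CPM in W5 (log2 0.99). Cfi, which inactivates complement, was at 47.4 CPM in W8 and 8.59 CPM in W5 (log2 2.33), and the serpin Serpinb11 at 8.66 CPM in W8 and 0.932 CPM in W5 (2.32). In the complement list 1 of 13 measured genes was higher and 1 was lower (median -0.09). In the list of serpins and other protease inhibitors 1 of 11 was higher and 0 were lower (median -0.16). Cxcl14, an epithelial chemokine, was at 227 CPM in W8 and 73.3 CPM in W5 (log2 1.61), and Cxcl12, a stromal chemokine, was at 67.9 CPM in W8 and 187 CPM in W5 (-1.45). Arg1, which breaks down arginine, was at 108 CPM in W8 and 24.5 CPM in W5 (log2 2.10) and was the only higher gene of 16 measured macrophage genes, of which Cd163 (-1.42) and Lyve1 (-1.08), both receptors of resident macrophages, were lower.

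In the list of matrix metalloproteinases, which also holds Plat, 6 of 13 measured genes were higher and 0 lower, with a median of 0.88. With the mean of W8 and W11 as the later level, 3 were higher (median 0.56). With the mean of W2 and W5 as the earlier level, 7 were higher (median 1.07). Summed levels were 993 CPM in W5, 1591 CPM in W8 and 903 CPM in W11. Mmp13, a collagenase, was at 110 CPM in W8 and 39.7 CPM in W5 (log2 1.45), Plat, the tissue plasminogen activator, was at 200.3 CPM in W8 and 75.8 CPM in W5 (1.39), and Mmp10 was at 141 CPM in W8 and 54.5 CPM in W5 (1.36). Mmp11 (log2 1.36) also rose, and its exons overlap those of Chchd10. Postn, a matrix protein, fell to 251 CPM in W8, against 570 CPM in W5 (log2 -1.18), as the only called gene of 15 activated matrix genes. The minor collagen Col19a1 was at 1.60 CPM in W0, 26.0 in W2, 23 in W5, 2.39 in W8 and 3.95 in W11 (log2 -2.82 of W8 over W5), and the basement membrane collagen Col4a5 was at 17 CPM in W8 and 58.9 CPM in W5 (-1.74).

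B cell genes were lower in 6 of 13 measured cases and higher in 0, with a median of -0.92 and summed levels of 99.8 CPM in W8 and 187 CPM in W5. Pax5, the B cell transcription factor, was at 1.87 CPM in W8 and 8.05 CPM in W5 (log2 -1.66). The follicular receptor Cxcr5 (log2 -1.53, with exons that overlap those of Bcl9l) and the complement receptor Cr2 (-1.43) also fell, while Cd79b was at 22.4 CPM in W8 and 20.1 CPM in W5 (0.15). Ms4a1 is listed at 0 in all libraries. Cxcl13, the chemokine that draws B cells into follicles, was at 16.7 CPM in W8 and 41.6 CPM in W5 (log2 -1.26), and Ccl28, an epithelial chemokine for IgA plasma cells, was at 70.8 CPM in W8 and 224 CPM in W5 (-1.65). Of 12 plasma cell genes 0 were called (median -0.15), with Jchain, which links IgA into dimers, at 2273 CPM in W8 and 4394 CPM in W5 (log2 -0.95).

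Interferon response genes were lower in 4 of 20 measured cases and higher in 0 (median -0.54): Mx1 (log2 -1.36), Ifi44 (-1.09), Irgm1 (-1.02) and Oas2 (-1.01). With the trend in transcript GC content removed, Mx1 alone of these stayed past 2-fold. Of 14 genes of dendritic cells and MHC class II, H2-Aa was lower, at 531 CPM in W8 and 1410 CPM in W5 (log2 -1.41), Fscn1 was higher (1.46), and the median was -0.45. Among 12 T cell genes Pdcd1, the checkpoint receptor PD-1, was at 7.17 CPM in W8 and 1.72 CPM in W5 (log2 1.59) and Cd4 at 15.6 CPM in W8 and 33.5 CPM in W5 (-1.06).

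Genes of fat were among the largest falls. Car3, a carbonic anhydrase abundant in mouse fat, was at 16.5 CPM in W0, 17.6 in W2, 51.9 in W5, 0.448 in W8 and 1.34 in W11 (log2 -5.19 of W8 over W5). Cfd, the fat-derived protease adipsin, had 2 counts in W8 (0.149 CPM) and was at 30.6 CPM in W5, 205-fold lower with a counting interval of 56.5 to 1696. Adipoq, the fat cell hormone adiponectin, was at 0 CPM in W8 and 9.42 CPM in W5, at least 42.0-fold lower against a floor of 3 counts per library. Cyp2e1, a cytochrome P450 also expressed in fat, was at 0.373 CPM in W8 and 19.9 CPM in W5 (log2 -3.93). Thrsp (log2 -1.13) and Cidec (-1.04), both of lipid storage, also fell. Of 8 measured adipocyte genes 4 were lower and 0 higher (median -0.94, also with Adipoq set to its bound). Summed levels over the list were 78.5 CPM in W8 and 177 CPM in W5, and Adipoq, Plin1, Lep and Retn were at 0 in W8. That sum was 258 CPM in W0, where Adipoq was at 3.56 CPM and Cfd at 14.1 CPM. Members other than Adipoq and Cfd thus held most of the sum in W0 and in W8.

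Enteric neuron and glia genes were lower in 5 of 12 cases and higher in 1 (median -0.78; sums 128 CPM in W8 and 223 CPM in W5). Vip, a neuropeptide, was at 34.3 CPM in W8 and 113 CPM in W5 (log2 -1.70), the growth cone protein Stmn2 fell by 1.41 and the synaptic protein Snap25 by 1.39 on the log2 scale, and the receptor Ret rose (1.19). The receptor subunit Chrna3 (log2 -1.08) was also lower. Of 13 measured smooth muscle genes 2 were lower, Acta2 (log2 -1.34) and Hhip (-1.07), 12 were below their W5 level and the sums were 3444 CPM in W8 and 5740 CPM in W5. Fibroblast genes had sums of 4463 CPM in W8 and 5269 CPM in W5, with Dpt (log2 -1.62) and Lum (-1.36) lower, and endothelial genes 653 CPM in W8 and 569 CPM in W5. The part of the fat, muscle and nerve genes in the other differences was not tested.

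**Figure D4:**
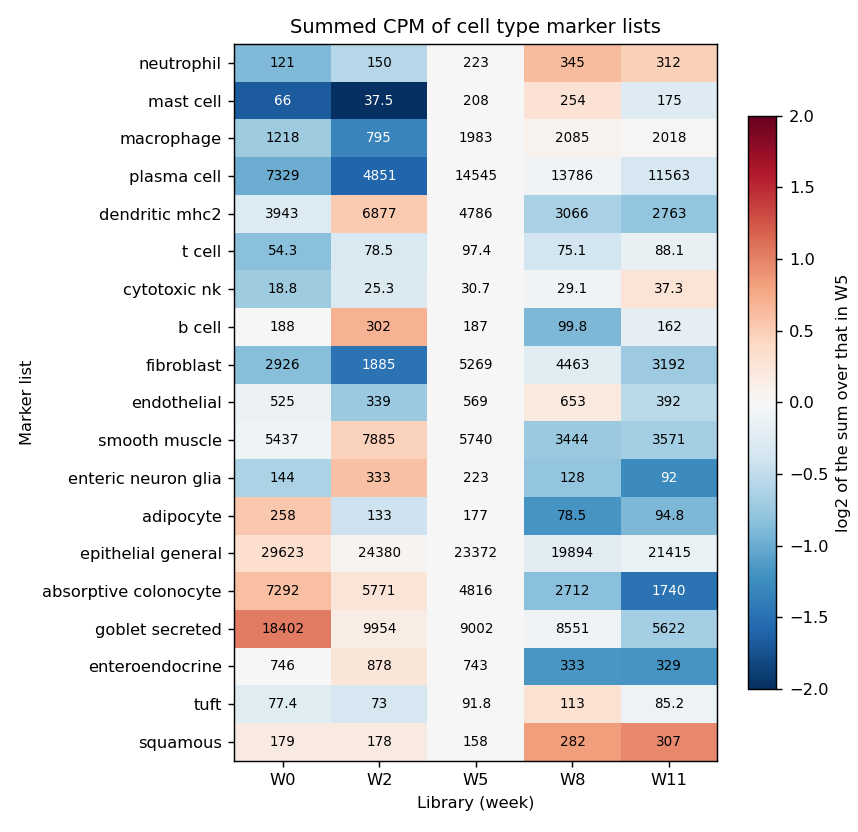
Summed CPM of 19 cell type marker lists (rows) in each library (columns, in order of week), where each cell gives the sum and its colour the log2 ratio of that sum to W5. In W8 the adipocyte (78.5 against 177 in W5), enteroendocrine (333 against 743) and B cell (99.8 against 187) sums are lower, and the neutrophil (345 against 223) and squamous (282 against 158) sums are higher. Ly6g, which was lower in W8, held most of the neutrophil sum in W5, and uncalled members held most of the squamous sum in W0. Members other than Adipoq and Cfd held most of the adipocyte sum in W0, where it was 258, and in W8.

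Transcript GC content moved with the folds. Across genes, which are not independent replicates, Spearman's rho between the 2 was 0.31. Genes were sorted into 10 bins of equal size, and in the bin with the lowest GC content the median log2 fold was -0.32, with 14 genes higher and 100 lower. In the bin with the highest GC content it was 0.28, with 118 genes higher and 12 lower. With the median fold of each of 20 GC bins taken away, 617 genes (4.19%) were higher and 496 (3.37%) were lower, 7.56% in all, of which 541 and 393 were among those called before. The medians of the lists then were 2.84 for Paneth-type genes, 1.25 for inducible antimicrobial genes, 1.64 for neutrophil genes, 1.19 for Wnt feedback inhibitors, -0.61 for absorptive colonocyte genes, -0.79 for enteroendocrine genes and -1.0 for B cell genes. Of the genes named above, Sox4, Msi1, Clu, Krt7, Krt17, H19, Guca2b, Gcg, Scg2, Hpgd, Pla2g4a, Postn, Hhip and Ehhadh were then under 2-fold, as were mt-Co2, mt-Co3 and 3 of the 4 interferon response genes. Mitochondrially encoded genes were lower in 5 of 12 cases (median -0.96, or -0.60 with that trend removed), most of all mt-Nd3, at 12.5 CPM in W8 and 137 CPM in W5 (log2 -3.35). The others were mt-Atp6 (log2 -1.66), mt-Atp8 (-1.46), mt-Co2 (-1.31) and mt-Co3 (-1.02), of which mt-Atp6 overlaps both mt-Atp8 and mt-Co3.

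**Figure D5:**
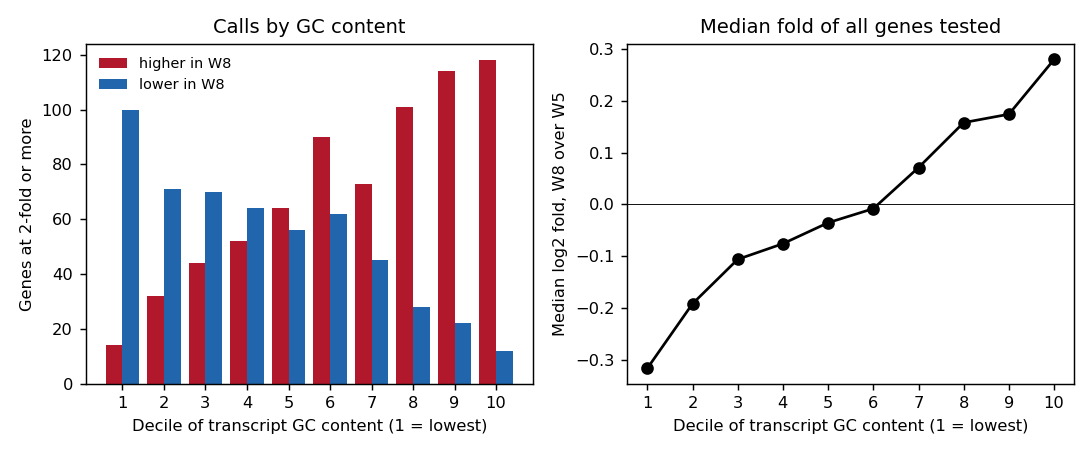
Genes sorted by GC content of their longest transcript into 10 bins (horizontal, 1 = lowest). Left, the number of genes 2-fold or more higher (red) and lower (blue) in W8; right, the median log2 fold of W8 over W5, which goes up from -0.32 in the lowest to 0.28 in the highest bin.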

How the data were processed

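RNA of mouse colon was sequenced in 5 libraries, 1 for each week, from TRIzol total RNA and TruSeq libraries per the labels' protocols. The submitters' processing notes name FastQC, HISAT2 2.2.1, featureCounts and the builds GRCm38, GRCm39 and mm39. The sources used here do not give the annotation, the strand setting or the treatment of multi-mapped reads. The table deposited by the authors has 2 columns per library. Those headed TPM hold whole-number read counts with a different sum in each library, and those headed count hold RPKM-like values deposited by the authors. In all 2620 genes above 5 RPKM in each library both kinds were proportional within 1%, so their headers were taken to be exchanged, and the counts were used.

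Each count was scaled to 1000000 per library (CPM) and log2(CPM + 1) was subtracted, W8 minus W5. With 1 library per week sizes alone are given. Ratios have exact conditional (Clopper-Pearson) 95% intervals, and a count of 0 has a floor of 3 counts (0.224 CPM in W8, 0.147 CPM in W5); both cover counting error only. Between 20111 and 21245 genes were detected per library. The calling step was tested on simulated counts. GC content, exon overlaps and shared 75-base words come from GENCODE M21, and upstream windows from RefSeq GRCm38.p6, where Defa24 has no entry. Coordinates belong to that build only.

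Members and gene lists were chosen with earlier results of these data known. The rule named Zg16, the 15 genes that rose most and the 15 that fell most with at least 5 CPM in the higher library, and, from each list, no more than 4 members, taken by size of fold where W8 or W5 had 1 CPM or more. Loci with no symbol or a clone name, pseudogenes, segments of immunoglobulins and T cell receptors, and hemoglobin, ribosomal, Y-linked and mitochondrial genes were not eligible for the largest changes. Genes outside this rule were named after their values were seen, including members under 2-fold given beside a list and further called members given to complete a count.

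The alternatives were a pseudocount of 0.1 or 5, all genes unfiltered, a stricter filter at a mean of 5 CPM, median-of-ratios scaling, totals without abundant genes, the deposited RPKM values, W5 thinned to the depth of W8, removal of the GC or length trend, and the mean of W2 and W5 as the earlier level. Chosen after seeing the data were the mean of W8 and W11 as the later level and folds centred on the median of all genes. Scripts ran in Python 3.11.15; numpy was version 2.4.6, pandas version 2.3.3, scipy version 1.17.1 and matplotlib version 3.10.9. Some results are not reported here.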

Additional observations from a re-analysis of the deposited data

How the results depend on the processing

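The count of 703 higher genes was within 1.5 times under 11 of 13 alternatives and came to 329 with a pseudocount of 5 and 282 with the deposited RPKM values. The count of 530 lower genes came to 863 with a pseudocount of 0.1, 207 with a pseudocount of 5, 255 with the RPKM values and 937 with the mean of W8 and W11 as the later level. The RPKM values summed to 132130 in W8 and 142464 in W5, far below the CPM total of a library. A pseudocount of a given size thus weighs more on RPKM than on CPM. The RPKM counts are therefore no separate check on the calls. How far the pseudocount accounts for them was not tested, and neither was the cause of the other shifts. The share of higher genes among the called ones lay between 51.7% and 61.4%. Of 268 named genes 152 were called, and none changed direction past the threshold. Of those, 104 stayed past 2-fold with a pseudocount of 5, 89 with the RPKM values, 133 with the GC trend removed and 127 with W11 averaged in. Among genes named as called in the results above, those under 2-fold with W11 averaged in were Ang4, Axin2, Cd79a, Clu, Cxcl5, Cxcr5, Duoxa2, Gcg, Gkn3, H19, Il36g, Krt10, Krt6a, Lgr5, Lyve1, Mmp13, Msi1, Msln, Ptgis, Ret, Retnlb, Rnf43, Slc10a2, Smoc2, Sox4, Thrsp, mt-Atp6, mt-Co2 and mt-Co3. With W2 averaged in they were Bax, Cd163, Cd4, Cidec, Cxcl12, Dpt, Ehhadh, Eno1, Fth1, Gpx1, Guca2b, Id3, Jag2, Krt10, Lum, Lyve1, Mptx1, Oas2, Pla2g4a, Postn, Ret, Thrsp and Tph1. Of 23 lists with a median of at least 0.5 in size, the sign turned for erythroid genes with the stricter filter and for oncofetal genes with W2 averaged in. No paired analysis was possible because each week has 1 library. At the depth of W8 a gene at 0 may lie anywhere up to 0.224 CPM, so losses of genes that are low in W5 could not be sized.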

Other observations

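Several genes and families not covered above also differed between W8 and W5, and all but Mt2, Mt3, Prss56, Otop1, Timm10 and Bche were chosen after their values were seen. The 4 measured butyrophilin-like genes were all lower: Btnl4 was at 56.5 CPM in W8 and 192 CPM in W5 (log2 -1.74), Btnl6 at 32.4 CPM in W8 and 90.2 CPM in W5 (-1.45), Btnl1 at 12.3 CPM in W8 and 41.1 CPM in W5 (-1.66), and Btnl2 fell by 1.55 on the log2 scale. Proteins of Btnl1 and Btnl6 are known in mice to maintain gamma delta T cells within the gut epithelium. Il22ra2, a soluble antagonist of interleukin 22, was at 1.27 CPM in W8 and 7.16 CPM in W5 (log2 -1.85). Carboxylesterases were lower in 4 of 12 measured cases and higher in 0, with Ces1d at 14.1 CPM in W8 and 50.5 CPM in W5 (log2 -1.77).

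Of 4 metallothioneins, which bind zinc and copper, 3 were higher: Mt3 was at 68.9 CPM in W8 and 6.43 CPM in W5 (log2 3.23), Mt4 at 86.6 CPM in W8 and 15.4 CPM in W5 (2.42) and Mt2 at 12.2 CPM in W8 and 5.50 CPM in W5 (1.02). Mt2 was under 2-fold with the GC trend removed (log2 0.84), with W2 averaged in and with W5 thinned to the depth of W8. Both Mt3 and Mt4 were higher still in W11, at 193 and 327 CPM. The zinc transporter Slc30a2 was at 136 CPM in W8 and 24 CPM in W5 (log2 2.46). Of 18 keratin genes 10 were higher and 1 lower, with Krt23 at 123 CPM in W8 and 23.6 CPM in W5 (log2 2.33) and Krt36 at 86.0 CPM in W8 and 19.8 CPM in W5 (2.06). Developmental regulators among the higher genes were Sox17 (log2 2.05), Tbx1 (1.98), Fgf3 (2.39) and Sox21 (1.33), and the cartilage collagens Col9a3 (2.26) and Col9a2 (1.90) rose as well. Among the largest single rises were also Prss56, a serine protease, at 20.1 CPM in W8 and 1.32 CPM in W5 (log2 3.18), and Otop1, a proton channel, at 11.9 CPM in W8 and 0.54 CPM in W5 (3.07). Among the largest falls were Timm10, a chaperone of mitochondrial import, at 55.0 CPM in W8 and 213 CPM in W5 (log2 -1.94), and the esterase Bche, at 4.71 CPM in W8 and 19.7 CPM in W5 (-1.86). Timm10 was at 70.4 CPM in W0, 68.9 in W2 and 82.0 in W11, so W5 was its highest library. Ly6d, a surface protein of layered epithelium and lymphoid cells, was at 76.9 CPM in W8 and 14.9 CPM in W5 (log2 2.30).

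Cytosolic ribosomal protein genes had a median log2 fold of 0.53, with 11 of 74 higher and 2 lower. Summed over all 83 of them in the table, levels were 54056 CPM in W8 and 45959 CPM in W5. Protein-coding genes whose symbols begin with Rpl or Rps and a digit are a set that differs in part. They held 4.78% of counted reads in W8, 4.11% in W5 and 11.2% in W11. Besides the TCF core, CAAAGTCCA, a site of HNF4 factors, was searched on both strands and was in at least 1 window of 2 of 484 higher genes with a window, 4 of 320 such lower genes and 54 of 10725 such genes of all those compared.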
